A study of Danio rerio with 6 samples.

Results

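The 3 control libraries of a zebrafish tail endothelial cell (EC) RNA-seq experiment are described here as a baseline of gene expression. They were chosen by their labels, as the samples without the GAL4 driver, and they are 3 of the 6 samples of the series. Their embryos carried the reporter flk1:GFP (flk1 is an older name of kdrl, and the line is also written kdrl:EGFP) together with the transgene UAS:DN-bmal1a. GAL4 is a yeast activator that switches on genes placed behind UAS, so without it the dominant-negative form of the clock factor Bmal1a has no driver in these cells. The tails, which hold the caudal haematopoietic tissue (CHT), were dissected at 36 h post-fertilisation (hpf) and digested with liberase, and about 5000 GFP-positive cells per sample were sorted. The study kept its embryos in the pigment inhibitor PTU from the end of the first day. The labels number the controls 1 to 3 and do not say whether they came from separate clutches, so the spread between them may be partly technical. The sort took GFP-positive live cells of the tail, without a gate against blood cells being named for these samples. No value of a library with the driver is given here. The choice of listed genes drew on all 6 samples, and the authors' scaling may have done so too.

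The CHT is the embryonic niche in which haematopoietic stem and progenitor cells settle and divide after they have left the wall of the dorsal aorta. Its vessels comprise the caudal artery, the venous plexus with its scavenging sinusoidal cells, and the sprouts that grow between the somites. The gene kdrl codes for a receptor of vascular endothelial growth factor (Vegf) made by ECs of arteries and veins alike. Primitive neutrophils, macrophages and erythrocytes already occupy or pass through this tissue at this stage.

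Each library held 37248181 to 51833686 recovered reads over 10232 listed genes, so that 1 read was worth 0.0199 to 0.0268 CPM (reads per 1000000 of the effective library size). A gene was listed only if it had reads in at least 3 of the 6 samples of the series, and genes outside the table were not analysed here. The number of listed genes without a read was 696 in replicate 1, 34 in replicate 2 and 422 in replicate 3. A count of 0 allows up to 3 reads, or 0.0725, 0.0803 and 0.0597 CPM in replicates 1, 2 and 3. Such limits cover the counting of reads and not the sampling of molecules before amplification. In all, 8368 genes (81.8%) had at least 1 CPM in all 3 libraries, 5705 had at least 10, 1562 at least 100 and 101 at least 1000 CPM, and the median gene had a mean of 20.97 CPM. Replicates 2 and 3 were the most alike. Across genes, log2(CPM + 1) correlated with r = 0.945 between replicates 2 and 3, 0.920 between 1 and 2, and 0.891 between 1 and 3, over genes that are not independent of one another. Transcript lengths were not used, so a longer transcript gives more reads at the same number of molecules, and values of different genes are shares of reads rather than relative numbers of transcripts.

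The genes with the largest shares of reads were those of the cytoskeleton, protein folding and translation. The cytoplasmic beta-actins came first, with 29462, 29711 and 29620 CPM of actb1 and 29545, 27674 and 25261 CPM of actb2 in replicates 1, 2 and 3. Both code for nearly the same protein, so that the split of reads between them is uncertain. The 10 highest genes of each library took 13.02%, 12.5% and 12.01% of the CPM, the 100 highest 33.2%, 31.6% and 31.2%, and 316, 359 and 367 genes made up 50% of it. No single listed gene thus dominated the CPM of any of the libraries.

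Heat shock and chaperone genes filled 6 of the 25 highest places. The constitutive cytosolic chaperone hspa8 had 17015, 14923 and 13557 CPM. The endoplasmic reticulum chaperones hspa5 (5965, 6296 and 8797 CPM) and hsp90b1 (3472, 3296 and 4864 CPM) were both highest in replicate 3. Cytosolic Hsp90 was read from hsp90aa1.2 with 5266, 6204 and 7603 CPM and from hsp90ab1 with 4879, 4065 and 3744 CPM, and these paralogues had the opposite order over the libraries. The collagen chaperone serpinh1b, with 2920, 2751 and 4071 CPM, was also highest in replicate 3.

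Translation was represented in the 25 highest genes by rps2 (mean 5910 CPM), rplp0 (5301), rps20 (3901) and rpl3 (3706), which are ribosomal proteins, and by the elongation factors eef1a1l1 (7760) and eef2b (3109). All 6 were highest in replicate 1 and lowest in replicate 3. The RNA-binding protein gene ybx1 had a mean of 3200 ± 513 CPM (SD, n = 3). Other widely used genes in this range were the mitochondrial ADP/ATP carrier slc25a5 (6595 ± 305 CPM), the actin regulator pfn1 (3693 ± 865), the tubulin tubb4b (3146 ± 209), the p53 target ccng1 (8036 ± 1891) and pnrc2 (3677 ± 742), a factor of mRNA decay. The gene listed as zgc:92066, which RefSeq names fthl27, a ferritin heavy chain-like gene, had 6312, 4710 and 5636 CPM.

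Only a few of the 25 highest genes point to a cell type. The keratin krt18, usually a marker of simple epithelia, ranked next after hspa8 with 13298, 12219 and 13603 CPM. The lysozyme gene lyz, a marker of neutrophils and some macrophages, had 6994, 5891 and 4287 CPM. The water channel aqp1a.1, found in arterial ECs and in erythrocytes of the zebrafish embryo, had 3261, 4344 and 3832 CPM. The tetraspanin gene cd81a had 3056, 3739 and 5017 CPM.

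**Figure D1:**
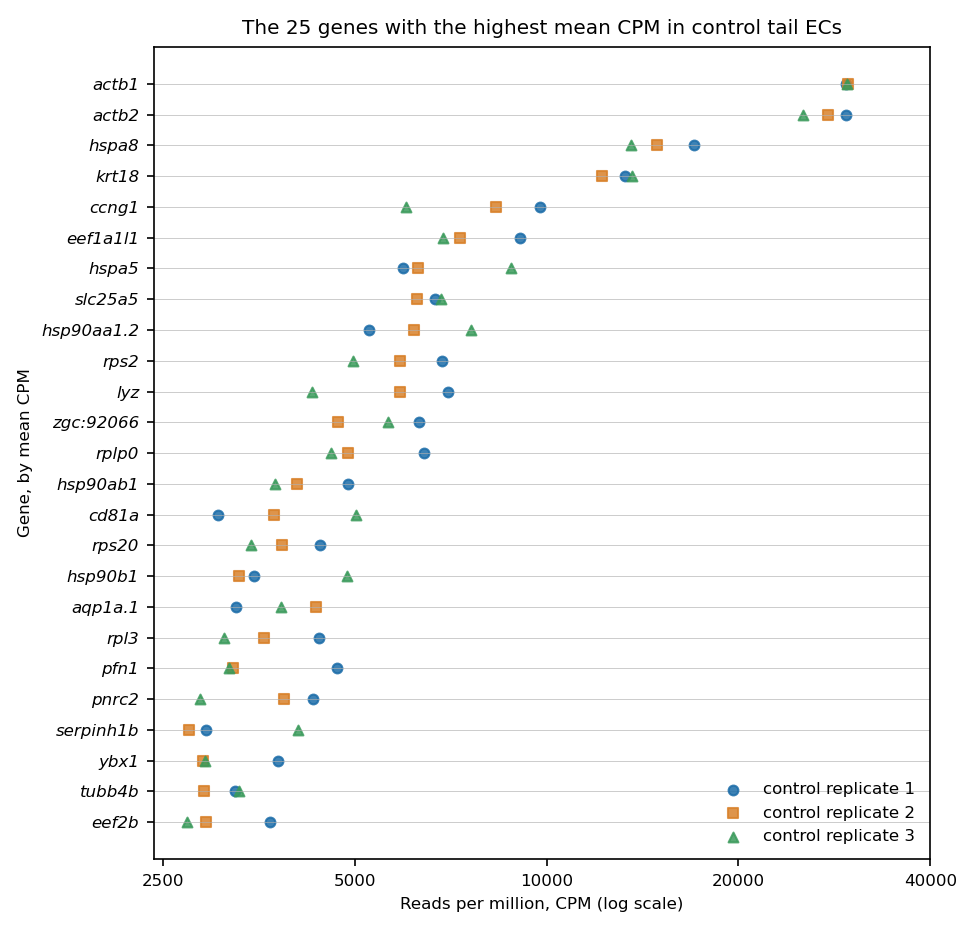
CPM of the 25 genes with the highest mean in the control libraries (horizontal axis, log scale), with 1 symbol per replicate and genes ordered by mean. The actins reach 25261 to 29711 CPM, and lyz and the ribosomal protein genes are highest in replicate 1, whereas hspa5, hsp90b1, serpinh1b and cd81a are highest in replicate 3.

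The levels of 4 endothelial marker genes are given first. The labels name no GFP-negative sample, so enrichment over other tail cells was not tested. The Vegf receptor gene kdrl, whose promoter drives the reporter used for the sort, had 911, 1116 and 1289 CPM in replicates 1, 2 and 3, a mean of 1106 ± 189 CPM (SD, n = 3) and rank 118 of all listed genes. The scavenger receptor gene stab2, a marker of sinusoidal and venous ECs, had 1428, 2168 and 1840 CPM (1812 ± 370, rank 57). For dll4, which codes for a Notch ligand of arterial and tip cells, the values were 799.8, 681.5 and 661.9 CPM (714 ± 74.6, rank 221). The apelin receptor gene aplnrb, found in venous and angiogenic ECs, had 408, 609 and 633 CPM (550 ± 124, rank 308). All 4 markers were thus present in every library, each behind at least 16902 reads, and none differed by more than 1.55-fold between libraries. Replicate 1 was the library apart for each of them, lowest for kdrl, stab2 and aplnrb and highest for dll4.

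Of 32 genes expressed by ECs in general, 27 were in the table, and 24 of these had at least 100 CPM in all 3 libraries. Their median mean level was 507 CPM, against 20.97 CPM over all listed genes. Together they held 1.27%, 1.303% and 1.49% of the CPM. The largest share belonged to etv2, the Ets factor at the head of the endothelial and haematopoietic programme, with 1669, 1279 and 1604 CPM. It was followed by the junctional cadherin cdh5 with 924, 1385 and 1070 CPM. Among other transcription factors of the lineage, sox7 had 1208, 774 and 1052 CPM and fli1a 802, 704 and 683 CPM, and the vascular tube regulator rasip1 had 818, 753 and 892 CPM. Lower values within the list, named after they were seen, were those of the Vegf receptors kdr (202, 336 and 388 CPM) and flt1 (90.2, 151 and 104 CPM), of the angiopoietin receptor tek (276, 361 and 408 CPM) and of the transcription factor erg (130, 169 and 256 CPM).

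Genes were called variable if their mean was at least 10 CPM and the highest library at least 4 times the lowest on CPM + 1. This held for 294 of 6641 genes (4.43%), a count that fell to 44 without replicate 1 and to 110 without replicate 3. Of the 25 endothelial genes with a mean of at least 10 CPM none was variable, where the share of all genes would amount to about 1. The list's median SD of log2(CPM + 1) was 0.28, against 0.33 over all genes with a mean of at least 10 CPM. Many of those genes had lower levels than the list. Genes with a mean of 100 to 1000 CPM had a median SD of 0.23, and 0.81% of them were variable. The list was thus not steadier than genes of that level. Among these 25 the widest spread belonged to tal1, a factor shared by endothelial and blood progenitors, with 824, 406 and 292 CPM. At the lower end, the von Willebrand factor gene vwf had reads only in replicate 2 (0, 2.65 and 0 CPM). The gene listed as si:dkey-208k22.3 (plvapa in RefSeq), a component of endothelial fenestrae, had 11.0, 6.40 and 3.44 CPM. Its paralogue plvapb, listed as vsg1, had 427, 515 and 628 CPM. The summed list was highest in replicate 3, with 13214, 12988 and 15347 CPM.

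All 19 arterial genes were in the table, and 10 had at least 100 CPM in all 3 libraries. After aqp1a.1, the largest shares were those of the Notch receptor notch1a, with 1250, 1160 and 1465 CPM, and of the water channel aqp8a.1, with 1232, 1466 and 949 CPM. The chemokine receptor cxcr4a had 1129, 883 and 626 CPM, and the Notch target hey1 had 328, 241 and 258 CPM. Both were highest in replicate 1, as was dll4. The ephrin ligand efnb2a, which sets arterial against venous identity, had 159, 148 and 147 CPM and was among the steadier genes of the list. The sum over the list was 9157, 9882 and 8831 CPM, so that the libraries differed by 1.12-fold. Some arterial factors stayed low: hey2 had 53.4, 44.0 and 12.9 CPM, sox17 had 10.3, 2.78 and 2.45 CPM, and jag1a had reads only in replicate 2 (0, 5.01 and 0 CPM).

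Venous and sinusoidal genes differed more between the libraries. Of 18 genes 15 were in the table, with a median mean of 526 CPM, and they summed to 9364, 12059 and 14642 CPM. None of the 15 was highest in replicate 1, 12 were highest in replicate 3, and 11 were lowest in replicate 1. Over all listed genes, 34.9% were highest in replicate 3 and 41.0% lowest in replicate 1. The cathepsin gene ctsla had 2588, 2826 and 3734 CPM, and the lysosomal protease lgmn had 1182, 1116 and 2228 CPM. The second stabilin, stab1, had 607, 1516 and 1267 CPM. The endocytic adaptor dab2 had 987, 1247 and 1576 CPM, and the selectin gene sele, which binds leukocytes to the vessel wall, had 711, 1037 and 937 CPM. Both stabilins and sele were lowest in replicate 1 and highest in replicate 2, whereas ctsla and dab2 were highest in replicate 3. The lysosomal members ctsla, lgmn, ifi30 and hexb, all highest in replicate 3, are also expressed by macrophages and other cells. Their reads are part of the list's sum, and a sum without these genes was not computed.

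Most of the other venous genes were also lowest in replicate 1. The lymphatic and venous Vegf receptor flt4 had 380, 542 and 657 CPM, the transcription factor nr2f2, which specifies venous identity, had 95.1, 100.2 and 193 CPM, and gpr182 had 193, 267 and 432 CPM. The venous partner of ephrin B2, ephb4a, differed least, with 171, 167 and 174 CPM. The lymphatic genes lyve1a (6.93, 11.8 and 12.9 CPM) and prox1a (4.69, 3.05 and 7.24 CPM) stood at low levels.

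Genes of angiogenic sprouts were present, but 9 of the 14 listed were in the table. The phosphatase gene dusp5, which limits Erk signalling in ECs, had 2150, 1593 and 1660 CPM, and the secreted proteoglycan gene esm1 had 1500, 1529 and 2061 CPM. These 2 held most of the list's sum of 4703, 4141 and 4680 CPM. The semaphorin receptor plxnd1 had 260, 289 and 354 CPM, and the Vegf co-receptors nrp1a and nrp1b had 308, 257 and 226 CPM and 276, 254 and 202 CPM. The Bmp target id3 had 158, 110.3 and 89.4 CPM. The apelin ligand gene apln, marking tip cells, had 48.5, 101 and 81.8 CPM.

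Genes that respond to blood flow summed to 564, 553 and 704 CPM over 6 members. The flow-induced factor klf2b had 231, 250.2 and 317 CPM, klf6a had 199, 132 and 127 CPM, and the caveolin gene cav1 had 120, 131 and 199 CPM. The klf2b paralogue klf2a was the exception within the endothelial lists. It had 7.27, 36.2 and 55.9 CPM, the only member of the 5 endothelial lists with a mean of at least 10 CPM whose libraries differed by at least 4-fold on CPM + 1. Over all genes with such a mean, 4.43% had this range. The endothelin gene edn1 stayed below 6 CPM with 1.62, 1.50 and 5.13 CPM.

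**Figure D2:**
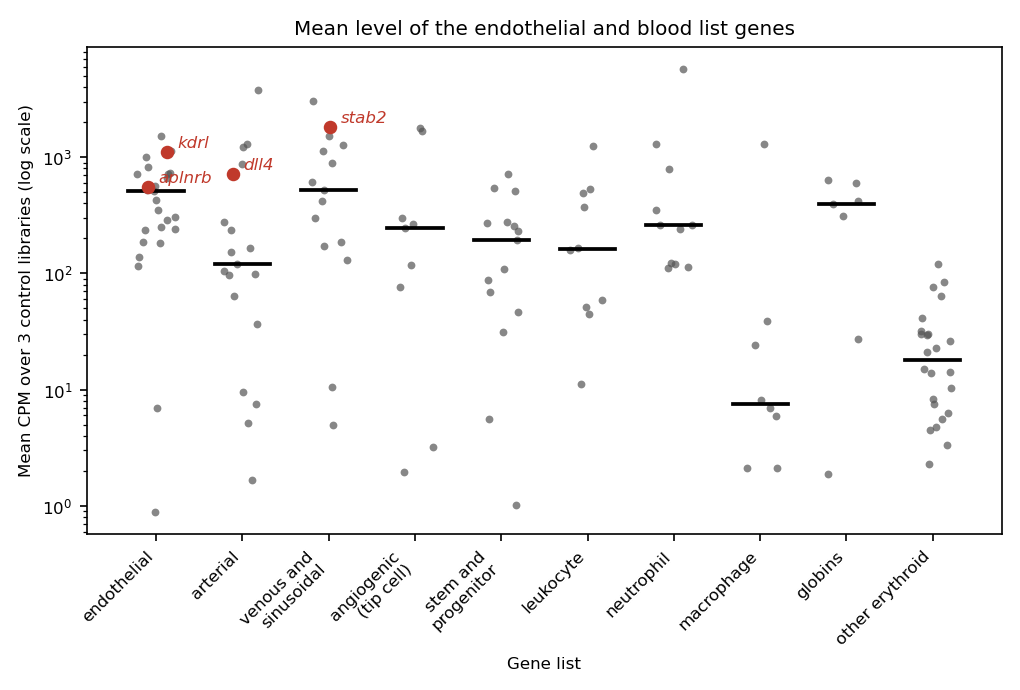
Mean CPM over the 3 control libraries (vertical axis, log scale) of each listed gene of 10 endothelial and blood gene lists, with 1 point per gene and a bar at the list's median. The medians are 507 CPM for endothelial, 526 for venous and 120 for arterial genes, against 7.53 for macrophage and 17.99 for other erythroid genes, and kdrl, stab2, dll4 and aplnrb are marked.

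Blood genes were present in all 3 libraries, at levels that differed by lineage. In such bulk samples fewer cells of a type and less RNA per cell cannot be told apart. Of 18 stem and progenitor genes, 15 were in the table, with a median mean of 193 CPM. Several of them, such as lmo2 (657, 621 and 882 CPM) and tal1, are shared with the endothelium. Among the others, myb, the factor needed for definitive haematopoiesis, had 667, 654 and 317 CPM, and gata2b, which marks haemogenic endothelium, had 326, 226 and 143 CPM. The granulocyte factor cebpa had 328, 324 and 174 CPM, the lymphoid factor ikzf1 had 292, 284 and 239 CPM, and hhex had 292, 192 and 279 CPM. Replicate 1 was highest for 13 of the 15 genes and replicate 3 lowest for 10, against 35.6% and 34.1% of all listed genes. The widest spread was that of gfi1aa, a repressor that helps haemogenic cells leave the endothelial programme, with 148, 36.1 and 22.1 CPM. It was the 1 variable gene among 13 of this list with a mean of at least 10 CPM (7.69%, beside 4.43% of all genes). The sums were 4206, 3116 and 2724 CPM, and runx1 and itga2b were not analysed here.

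Neutrophil genes made up the largest blood share, with 1.11%, 0.99% and 0.67% of the CPM over 11 listed genes. The enzyme of neutrophil granules, mpx, had 1818, 1266 and 818 CPM, and the granule proteoglycan srgn had 831, 893 and 664 CPM. The values were 474, 337 and 239 CPM for nccrp1, 287, 298 and 198 CPM for the chemokine receptor cxcr4b, and 325, 285 and 170 CPM for the cytokine receptor il6r. Replicate 3 was lowest for 10 of the 11, against 34.1% of all listed genes. Without lyz the list still summed to 4514, 3932 and 2587 CPM. Genes shared by leukocytes had the same order in their sum of 3862, 3226 and 2284 CPM. There the actin regulators coro1a and lcp1 had 1537, 1259 and 914 CPM and 618, 499 and 372 CPM, and the phosphatase ptpn6 had 609, 350 and 152 CPM. The GTPase regulator arhgdig, with 562, 583 and 447 CPM, the GTPase rac2, with 181, 173 and 141 CPM, and plek, with 160.2, 176 and 139 CPM, varied less. The myeloid factor spi1b had 77.3, 64.2 and 37.3 CPM. Of the 10 leukocyte genes listed, 9 were lowest in replicate 3, again beside 34.1% of all listed genes.

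Macrophage genes were few and low apart from 1. The lipoprotein gene apoeb, which many other cells also express, had 625, 1241 and 2038 CPM and set the list's sum of 705, 1338 and 2126 CPM. Without apoeb, the other 7 genes summed to 80.7, 97.8 and 88.2 CPM. Of these, the chemokine receptor cxcr3.2 had 48.2, 41.8 and 27.8 CPM, and mpeg1.2, a pore-forming protein of macrophages, had 5.92, 26.4 and 40.9 CPM. The microfibril-like gene mfap4, another marker of these cells, had 3.21, 3.16 and 0.0199 CPM, the last of which is 1 read. The macrophage factor irf8 had 4.06, 2.30 and 0 CPM. The libraries with more neutrophil reads were therefore not those with more apoeb, and mpeg1.1, csf1ra and marco were not analysed here.

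Globins varied most among the blood lists. Embryonic alpha-globin was read from hbae1 with 983, 324 and 617 CPM and from hbae3 with 1047, 263 and 503 CPM. Embryonic beta-globin came from si:ch211-5k11.12 (hbbe1.3 in RefSeq) with 722, 163 and 366 CPM, hbbe1.1 with 503, 163 and 510 CPM and hbbe3 with 492, 132 and 304 CPM. Replicate 2 was lowest for all 5 and also for hbbe2, with 46.1, 8.78 and 26.5 CPM. The 7 genes in the table summed to 3794, 1057 and 2328 CPM, a 3.59-fold range, and since these copies resemble each other closely the sum is firmer than the single values.

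Other erythroid genes followed the globins only in part. They summed to 822, 546 and 652 CPM over 24 genes, 1.51-fold apart, with replicate 2 lowest in 11 of the 24, against 24.9% of all listed genes. The order of the globin sum, replicate 1 highest and replicate 2 lowest, was seen in several enzymes: alas2, the first enzyme of haem synthesis, had 60.3, 18.7 and 44.1 CPM, the carbonic anhydrase cahz had 41.3, 8.91 and 28.6 CPM, blvrb had 44.7, 16.5 and 28.8 CPM, and the haem enzyme urod, which all cells need, had 168, 96.6 and 98.5 CPM. The anion exchanger slc4a1a was highest in replicate 3, with 94.9, 45.2 and 111 CPM. Other orders were those of the spectrin sptb with 20.9, 43.4 and 24.6 CPM and of the haem enzyme cpox with 11.2, 21.6 and 9.50 CPM, while the cofactor zfpm1 had 50.8, 72.0 and 67.3 CPM, znfl2a had 132, 55.9 and 41.3 CPM, and epb41b had 23.3, 31.8 and 41.3 CPM. The master regulator gata1a was low in all 3, with 4.13, 5.84 and 8.89 CPM.

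Of 9 lymphoid and thrombocyte genes, 4 were in the table, and only f13a1b was high. This clotting factor gene had 2414, 2086 and 2259 CPM, an SD of 0.11 on the log2 scale. The recombinase gene rag2 had 7.27, 1.50 and 0.298 CPM, il7r had 4.59, 1.23 and 2.55 CPM, and the platelet glycoprotein gp1bb had 0.0242, 0.535 and 0 CPM. These 3 genes were thus low beside f13a1b, and the other 5 were not analysed here. The gene f13a1b is also known from macrophages in mammals.

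Genes of tissues other than vessel and blood were also present. Skeletal muscle genes held 0.22%, 0.33% and 0.68% of the CPM over 32 of the 41 listed genes. Muscle actin actc1b had 630, 802 and 2089 CPM. The creatine kinases ckma and ckmb had 122, 262 and 526 CPM and 81.7, 234 and 562 CPM, tropomyosin tpma had 92.2, 187 and 431 CPM, and the calcium pump atp2a1 had 31.7, 171 and 342 CPM. All of these were highest in replicate 3 and lowest in replicate 1, as were 21 of the 32 genes of the list, an order seen in 23.7% of all listed genes. The glycolytic enzyme eno3, with 628, 577 and 613 CPM, did not share it. Without actc1b and eno3, the remaining 30 genes summed to 1065, 1884 and 4348 CPM, a 4.08-fold range. The precursor cell factors pax7b and myf5 were highest in replicate 1, with 5.65, 0.535 and 0.199 CPM and 3.55, 0 and 1.47 CPM.

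The sums of matrix and skeletal genes were also lowest in replicate 1, but highest in replicate 2. Single genes did not all follow. Lowest in replicate 1 were 12 of 16 fibroblast and sclerotome genes and 8 of 12 notochord and cartilage genes, beside 41.0% of all listed genes. Of the 16, 3 were highest in replicate 1. The fibroblast and sclerotome list summed to 634, 1419 and 1151 CPM, with 184, 291 and 307 CPM of col1a2, 102, 304 and 273 CPM of col1a1a, 43.2, 137 and 119 CPM of col1a1b, and 85.9, 358 and 139 CPM of the fibrillin fbn2b. The fin fold actinodin and1 had 7.25, 58.3 and 41.6 CPM. The chemokine gene cxcl12a was steady, with 101, 94.6 and 108 CPM, and the fibronectin gene fn1a had 25.9, 57.7 and 56.6 CPM. Notochord and cartilage genes had 191, 711 and 503 CPM in all. Their collagens led, with 62.9, 206 and 169 CPM of col2a1a, 10.3, 71.0 and 76.4 CPM of col11a1a, and 2.97, 94.5 and 40.6 CPM of col9a1b, and the notochord genes cmn and matn4 had 22.2, 89.4 and 34.0 CPM and 43.1, 89.9 and 67.0 CPM. None of the 12 genes was highest in replicate 1, beside 35.6% of all listed genes, and col9a2 had 14.4, 46.5 and 64.6 CPM.

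Mural cell genes were low and even, with a sum of 579, 643 and 645 CPM over 9 genes. The myosin light chain myl9b had 304, 327 and 365 CPM, the smooth muscle myosin myh11a had 138, 159 and 109 CPM, and notch3 had 72.8, 64.2 and 56.2 CPM. The forkhead factor foxc1a, which ECs also use, had 32.4, 32.4 and 61.9 CPM, and myl9a had 28.3, 43.7 and 31.7 CPM. The defining mural cell genes abcc9 (0, 2.65 and 0 CPM) and rgs5b (0, 6.29 and 3.54 CPM) were low, and pdgfrb, acta2 and tagln were not analysed here.

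The epidermal list held 1.71%, 1.68% and 1.74% of the CPM, most of it from the simple-epithelial keratins krt18 and krt8. The second had 2580, 2894 and 3279 CPM. Which cells this keratin pair came from was not tested. Without this pair the other 26 genes summed to 1860, 1637 and 1086 CPM. Of these krt4, a keratin of the outer periderm layer, had 976, 665 and 368 CPM, the p53 target perp had 299, 357 and 346 CPM, and the calcium-binding gene icn had 95.2, 131 and 86.6 CPM. The skin keratin cyt1 had 103, 98.5 and 67.3 CPM, and its relative cyt1l 107, 83.7 and 47.4 CPM. Replicate 3 was lowest for 19 of the 28 listed genes, against 34.1% of all listed genes. Among the 19 was epcam, the epithelial adhesion gene, with 41.0, 22.5 and 9.45 CPM. The basal epidermal factor tp63 had 6.18, 4.42 and 10.9 CPM, and E-cadherin (cdh1) had 0.121, 18.9 and 6.52 CPM. The keratin pair thus lay above the other epidermal genes in level. Orders over the libraries were mixed. Lowest in replicate 2 were krt18 and tp63, in replicate 1 krt8 and cdh1, and in replicate 3 krt4 and epcam.

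Neural genes had low levels. The 19 in the table had a median mean of 6.01 CPM and summed to 215, 249.8 and 266 CPM. The highest were tubb5 (30.3, 57.7 and 78.6 CPM), the dorsal neural tube factors zic2b (34.5, 69.9 and 38.8 CPM) and zic2a (49.7, 19.9 and 29.7 CPM), the splicing regulator nova2 (23.6, 33.0 and 26.4 CPM) and pax2a (11.5, 5.54 and 19.6 CPM). The tubulin tuba1a had 15.5, 10.9 and 8.63 CPM. The pan-neuronal gene elavl3 had 8.21, 5.03 and 2.49 CPM, and the progenitor factor sox2 had 0, 3.27 and 3.96 CPM. Neural crest and pigment genes had 190, 227 and 213 CPM in all, led by the purine enzymes gart (64.8, 82.2 and 65.6 CPM) and paics (38.3, 55.8 and 47.1 CPM) and by tfec (33.3, 42.7 and 70.2 CPM), none of them restricted to pigment cells. The melanin enzyme gene dct had 18.1, 11.0 and 2.15 CPM, gch2 had 3.94, 9.93 and 12.7 CPM, and tfap2a had 12.9, 4.76 and 5.13 CPM, while crestin was read below 1 CPM in each library (0.0483, 0.990 and 0.815 CPM).

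Of 22 genes of pronephros, gut and yolk 11 were in the table, and their sum had the reverse order of muscle. The regulators pax8, hnf1ba, hnf1bb, foxa2 and foxa3 were not analysed here. The 11 members read were all highest in replicate 1, and 9 were lowest in replicate 3, with sums of 340, 195 and 95.7 CPM. The yolk apolipoproteins apoa2 (95.2, 58.9 and 36.3 CPM), apoa1b (75.2, 43.6 and 18.1 CPM) and apoa1a (52.8, 29.3 and 12.3 CPM) came first, followed by the kidney and gut cadherin cdh17 with 51.2, 38.8 and 15.8 CPM. Transferrin (tfa) had 22.9, 5.09 and 0.0199 CPM, and apoc1l had 16.4, 7.60 and 4.33 CPM. An order of replicate 1 highest and replicate 3 lowest was seen in 21.8% of all listed genes. None of 7 hatching gland and lens genes was in the table.

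Hox genes mark positions along the body axis, but no other body region was read here for comparison. The 22 posterior genes (paralogue groups of the trunk and tail) summed to 1068, 926 and 1224 CPM, and the 11 anterior genes to 227, 231 and 264 CPM. The highest posterior genes were hoxb9a (191, 214 and 259 CPM), hoxd12a (125, 106 and 132 CPM), hoxd10a (156, 81.2 and 114 CPM) and hoxd9a (141, 75.0 and 64.1 CPM), followed by hoxc12a (62.9, 74.6 and 93.7 CPM) and hoxa10b (95.1, 58.8 and 70.4 CPM). Genes of the last paralogue group, used in the tail bud, had less, as hoxc13a with 20.6, 38.8 and 81.6 CPM and hoxa13b with 11.4, 15.2 and 36.8 CPM. Among anterior genes, hoxa3a had 84.4, 90.6 and 120 CPM, hoxb3a 28.4, 48.9 and 55.1 CPM, hoxa4a 45.5, 34.2 and 31.2 CPM, hoxc3a 27.4, 22.1 and 9.25 CPM, and hoxd3a 17.9, 16.2 and 22.2 CPM. The remaining anterior genes lay below 10 CPM, with hoxd4a at 4.93, 3.51 and 9.46 CPM. Of the 19 posterior and 5 anterior genes with a mean of at least 10 CPM none was variable, beside 4.43% of all genes.

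**Figure D3:**
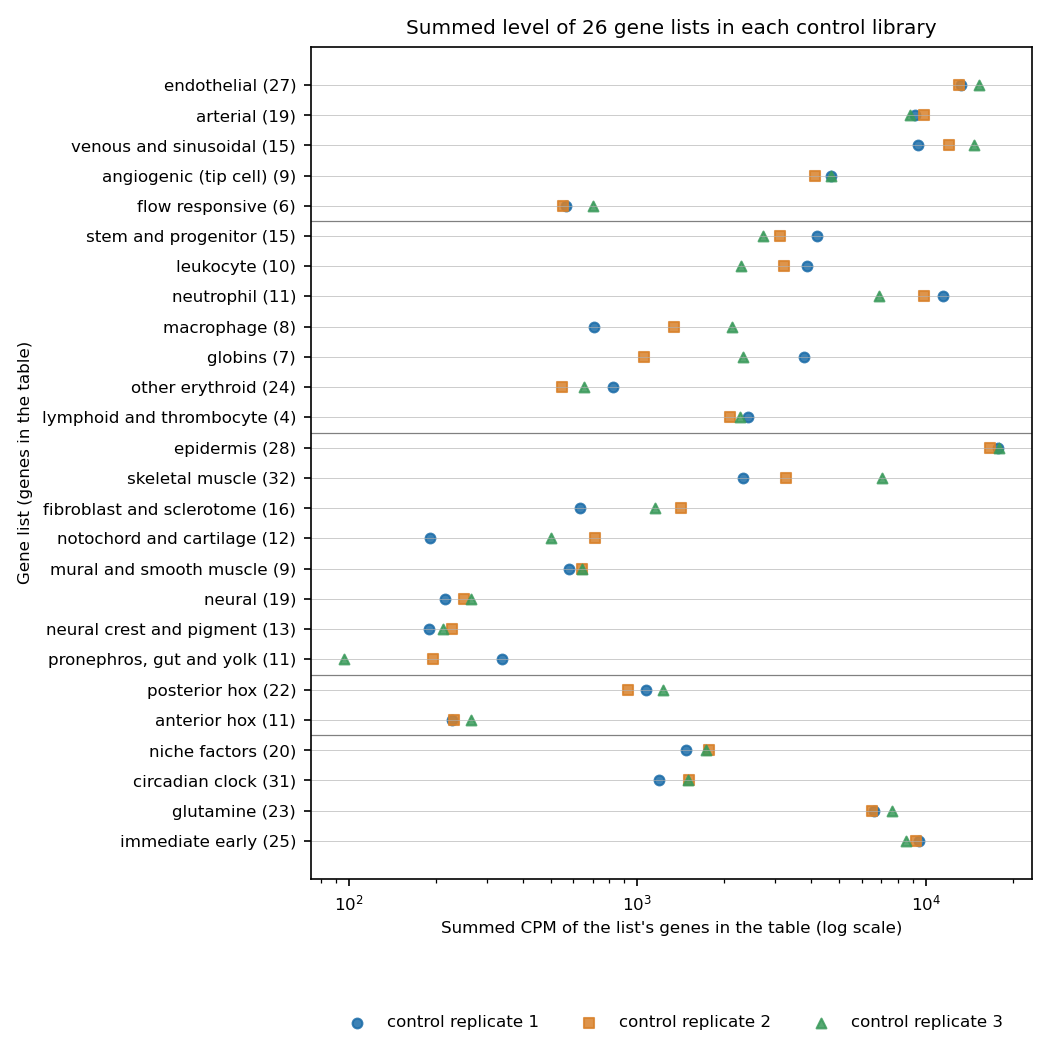
Summed CPM of the listed genes of 26 gene lists (horizontal axis, log scale) in each control library, with 1 symbol per replicate and the number of genes in the table in brackets. Of the endothelial lists the venous one spans most, 9364 to 14642 CPM, while skeletal muscle spans 2323 to 7050 CPM, globins 1057 to 3794 CPM, and pronephros, gut and yolk genes 95.7 to 340 CPM.

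Signals that the niche gives to haematopoietic cells were read from 20 of 31 listed genes. Besides sele, the growth factor igf2b had 308, 243 and 291 CPM, the chemokine genes cxcl12b and cxcl12a had 102, 117 and 140 CPM and 101, 94.6 and 108 CPM, and the Notch ligand jag1b had 101, 87.9 and 102 CPM. The growth factor tgfb1a had 27.8, 60.7 and 62.7 CPM. The stem cell factor genes stood low, with 10.7, 13.7 and 6.88 CPM of kitlga and 0, 0.883 and 2.39 CPM of kitlgb. The same held for csf3b with 0, 13.5 and 8.97 CPM. The cyclooxygenase ptgs1 had 33.2, 8.70 and 3.18 CPM. It was the 1 variable gene among 11 of the list with a mean of at least 10 CPM (9.09%, beside 4.43% of all genes).

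Clock genes were read from 31 of 37 listed genes, with a median mean of 20.7 CPM. The highest were the output repressor nfil3-6 (150, 328 and 256 CPM), the Rev-erb gene nr1d2b (239, 260 and 202 CPM) and the output activator tefa (179, 205 and 200.9 CPM). Among the inhibitors of the loop, cry2a had 90.9, 100.4 and 81.6 CPM, cry2b 51.0, 79.1 and 77.3 CPM, and the light-induced per2 56.1, 72.0 and 137 CPM. The activators stood lower: arntl1b had 16.0, 27.5 and 25.2 CPM, arntl2 had 17.8, 25.7 and 18.6 CPM, clockb had 0, 5.46 and 22.3 CPM, and clocka had 0, 7.84 and 0.0398 CPM. The gene arntl1a (bmal1a), of which the undriven transgene carries part of the coding sequence, had 20.6, 16.8 and 3.28 CPM. It was the 1 variable gene among 19 clock genes with a mean of at least 10 CPM (5.26%, beside 4.43% of all genes). Below that mean, clockb, clocka, npas2, per1b, hlfa and cry5 spanned a wider range on CPM + 1. The value of arntl1a would also include any reads that came from the transgene.

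Glutamine genes had high levels, with a median mean of 103 CPM over 23 listed genes. Glutamine synthetase, which makes glutamine from glutamate and ammonium, was read from glula with 1532, 1522 and 2923 CPM and from glulb with 1461, 1108 and 1268 CPM. The amino acid transporters slc38a2 and slc38a4 had 1750, 1836 and 1250 CPM and 655, 545 and 426 CPM, both lowest in replicate 3, the library with the most glula. Glutamate dehydrogenase, which links glutamate with the Krebs cycle, came from glud1b with 284, 351 and 346 CPM and glud1a with 159, 186 and 261 CPM. Glutaminase, the enzyme of the reverse step, was read from glsa with 5.43, 38.2 and 40.3 CPM. This was the 1 variable gene among 21 of the list with a mean of at least 10 CPM (4.76%, beside 4.43% of all genes). The transporter slc1a5 had 85.2, 139.5 and 109 CPM.

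Immediate early genes, which respond within minutes to growth factors or stress and also to the dissociation of tissue, were present in every library and held 0.91%, 0.92% and 0.83% of the CPM over 25 genes. The highest was junbb with 2554, 2299 and 2092 CPM, followed by the mRNA decay factor zfp36l1a with 823, 1113 and 1480 CPM. The values were 989, 864 and 920 CPM for jun, 762, 525 and 551 CPM for the phosphatase dusp1, 626, 492 and 556 CPM for ier2, and 495, 586 and 336 CPM for the nuclear receptor nr4a1. The early growth response genes were more spread, with 215, 77.2 and 59.1 CPM of egr1 and 79.3, 25.8 and 13.5 CPM of egr3, highest in replicate 1. Of the 25 genes, 15 were lowest in replicate 3, beside 34.1% of all listed genes. How far the digestion at 33 °C shaped these levels was not tested.

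Variation between the libraries depended on level. The median SD of log2(CPM + 1) was 0.53 for genes with a mean under 1 CPM, 0.79 for 1 to 10 CPM, 0.39 for 10 to 100 CPM, 0.23 for 100 to 1000 CPM and 0.21 above. The added 1 narrows the spread of the lowest class. Its median coefficient of variation (SD over mean) was the largest, 100.7% against 64.8% for 1 to 10 CPM. Of the 294 variable genes, 14 had a mean of 100 CPM or more. In any of the 27 gene lists, which held 418 genes of the table, were 36 of the 294. The share of variable genes among list members with a mean of at least 10 CPM differed by list. It ranged from 0 in several lists, such as the endothelial and arterial, to 48% in skeletal muscle (12 of 25), beside 4.43% of all genes. Just inside the rule lay fam20b (6.52, 25.1 and 29.1 CPM) and amh (27.3, 6.08 and 9.48 CPM), and just outside it hivep2a (12.9, 41.4 and 54.4 CPM) and apoa1b.

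**Figure D4:**
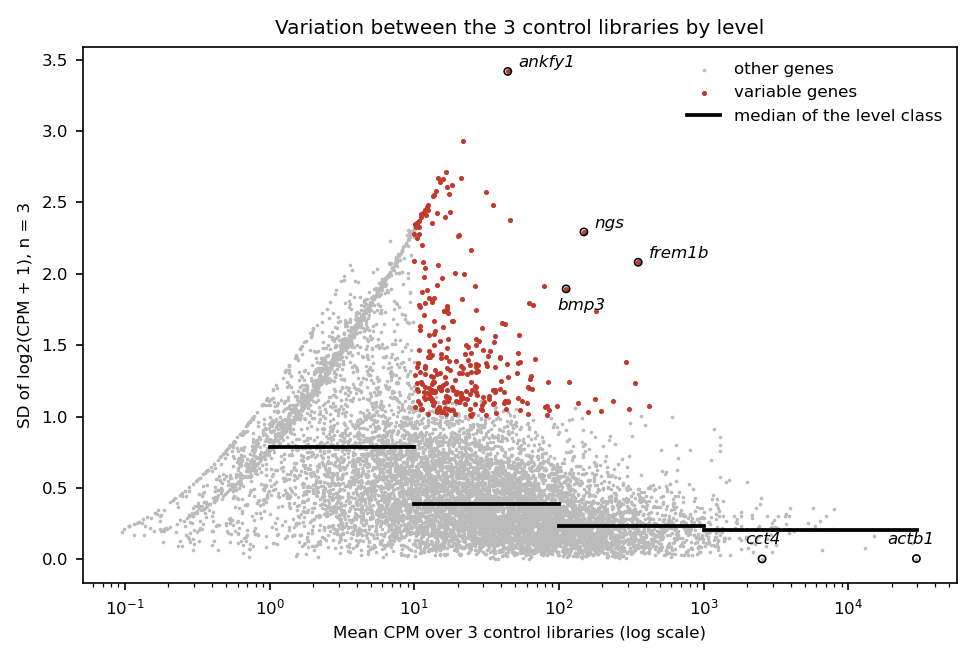
SD of log2(CPM + 1) over the 3 control libraries (vertical axis) against mean CPM (horizontal axis, log scale), with 1 point per gene, variable genes in red and black lines at the median of each level class from 1 CPM upwards. Above 1 CPM the spread narrows with level, the lines falling from 0.79 to 0.21, and ankfy1 stands above all other genes with an SD of 3.42.

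Replicate 1 stood apart in most variable genes. It was the low library in 154 of the 294 and the high one in 32, whereas replicate 3 was the low one in 66 and the high one in 17, and replicate 2 was apart in 25. Over all 6641 genes with a mean of at least 10 CPM, replicate 1 was the low library in 22.4% and the high one in 18.6%, and replicate 3 the low one in 18.1% and the high one in 18.4%. The widest spread was that of the endosomal gene ankfy1, with 4, 1588 and 4543 reads, or 0.0966, 42.5 and 90.3 CPM. Most of the next genes were read only in replicates 2 and 3. The lysyl oxidase loxl2b had 0, 28.3 and 37.1 CPM, the muscle caveolin cav3 had 0, 36.8 and 13.3 CPM, the tetraspanin tspan7b had 0, 39.3 and 4.33 CPM, and the retinol enzyme retsat had 0, 21.6 and 25.4 CPM. The muscle gene mybpc2b, for a myosin-binding protein of fast fibres, had 0, 9.32 and 36.2 CPM.

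Most of the 25 most variable genes were in none of the 27 gene lists, and no tissue was assigned to them here. The ephrin receptor epha4a had 0, 22.4 and 19.8 CPM, the receptor tyrosine kinase tyro3 had 0, 14.7 and 26.1 CPM, and the translation factor paip1 had 0, 12.4 and 28.1 CPM. The terminal uridylyltransferase tut1 (0, 17.2 and 19.5 CPM), igbp1 (0, 10.4 and 25.01 CPM), the ciliary transport gene ift172 (0, 15.3 and 19.4 CPM) and hhatla (0, 6.32 and 27.0 CPM) were likewise without a read in replicate 1. In this set mcrs1, ctdspl2a, dclre1b, meis2b and the motor gene myo6a had between 2 and 17 reads in replicate 1 and at least 549 in each other library. The synuclein sncga had 1.18, 70.5 and 22.3 CPM, zbtb18 had 1.69, 51.2 and 52.7 CPM, zgc:91999 had 0.169, 40.7 and 9.98 CPM, and si:dkey-110k5.6 had 0.483, 37.2 and 15.6 CPM. Only 2 of the 25 were low in replicate 3 instead, the periplakin gene ppl of the epidermal envelope with 31.2, 31.6 and 0.318 CPM, and the hedgehog inhibitor hhip with 19.7, 17.5 and 0.0398 CPM. Among these 25 genes, reads in 2 libraries beside few or none in the other was the usual pattern. A choice by largest SD of log2(CPM + 1) favours this pattern.

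Among 1869 genes with a mean of at least 100 CPM, 14 were variable and are named here after their values were seen. Of the 14, 8 were muscle genes, namely atp2a1, ckmb, ckma, tpma, pvalb2, tnni2a.4, myl1 and mylz3, the last of which was not in the muscle list. In that list, 12 of 25 genes with a mean of at least 10 CPM were variable (48%, beside 4.43% of all genes). Another 2 of the 14 were fbn2b and the globin si:ch211-5k11.12 given above. The parvalbumin pvalb2 had 68.9, 132 and 328 CPM, the troponin tnni2a.4 had 64.3, 78.9 and 264 CPM, and the myosin light chain myl1 had 41.5, 79.1 and 232 CPM. The notochord granular surface gene ngs had 13.3, 329 and 104 CPM. The basement membrane gene frem1b of the fin fold had 41.0, 457 and 561 CPM, low in replicate 1 like the sum of the matrix genes above. The growth factor bmp3 had the reverse order, with 241, 78.6 and 16.7 CPM, and the gene listed as MGC173646 had 659.5, 121 and 226 CPM.

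**Figure D5:**
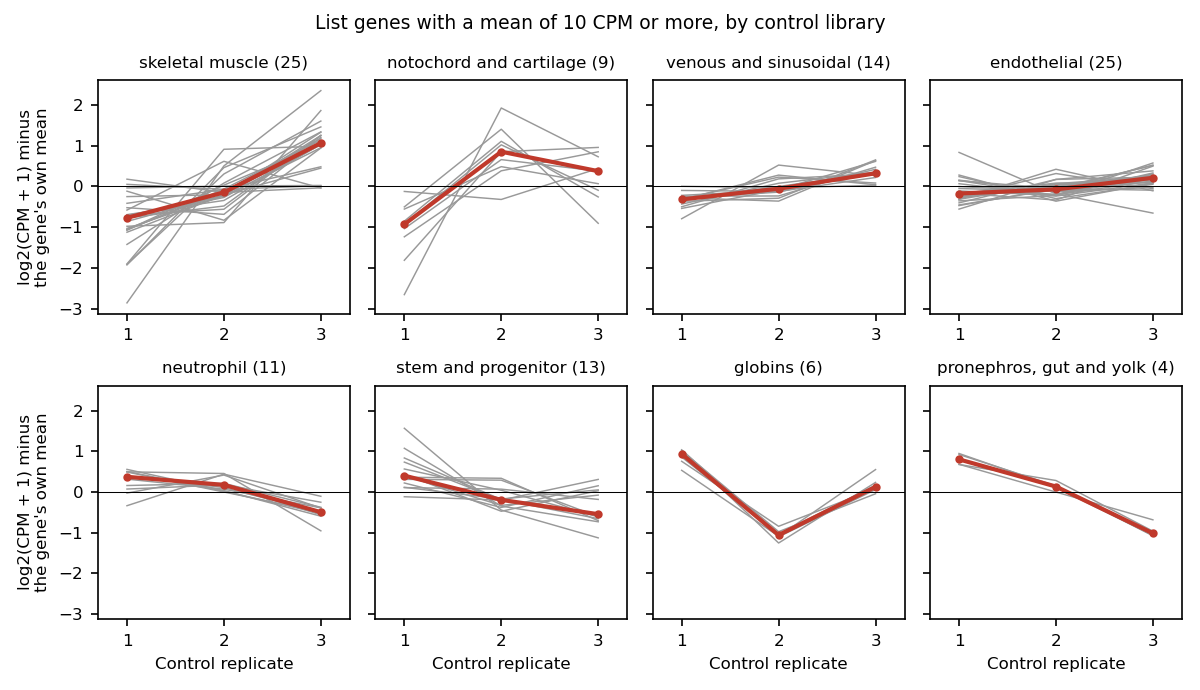
For 8 gene lists, log2(CPM + 1) of each gene with a mean of at least 10 CPM minus its own mean over the 3 control libraries (vertical axis), by replicate (horizontal axis), with grey lines joining the values of 1 gene and the red line the median. The order of replicates has no meaning; muscle genes are low in replicate 1 and high in replicate 3, pronephros, gut and yolk genes the reverse, and globins are low in replicate 2.

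The 10 genes of smallest SD among those with a mean of at least 100 CPM had varied functions. The chaperonin subunit cct4 had 2538, 2531 and 2544 CPM, an SD of 0.0037 on the log2 scale, and actb1 came next with 0.0061. The histone chaperone setb had 261, 263 and 261 CPM, the mRNA decay factor patl1 had 145, 144 and 143 CPM, and ubap2b had 294, 289 and 290.0 CPM. The splicing gene srsf11 had 593, 588 and 599.9 CPM, the autophagy gene map1lc3a had 143, 143 and 139.8 CPM, and the methionine adenosyltransferase mat2aa had 212, 217 and 217 CPM. The set was completed by rimkla with 214, 213 and 217 CPM and the acetyltransferase naa40 with 116, 114 and 114 CPM. An SD taken from 3 values has a wide error of its own.

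Of all listed genes, 9182 had reads in all 3 libraries, 949 were at 0 in 1 of them, 100 in 2, and only foxe3 in all 3. The listing rule of reads in at least 3 of the 6 samples limits these counts. A gene at 0 in all 3 controls was listed only if every library with the driver had reads of it. The highest mean among genes at 0 in any library was 21.8 CPM, that of loxl2b. Genes above that level were therefore read in every control library.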

How the data were processed

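The members (the 3 control libraries) and the gene lists were chosen with earlier results of these data known. RNA of the sorted cells was extracted with an RNeasy kit, and cDNA was made with the SMARTer Ultra Low and Nextera XT kits. Per the submitters' processing notes, reads were handled with bcl2fastq 2.20.0, mapped with STAR 2.7.0f, counted with HTSeq 0.9.1 and normalised with edgeR 3.38.4. The notes name the build GRCz11, whereas the study's methods name danRer10, so no coordinates are given. The authors deposited a normalised signal per gene and library, which is taken here as reads per 1000000 of an effective library size (CPM). Each value above 0 was a whole multiple of 1 step per library, within 0.001 reads for 100% of them, and these steps gave the reads. The number of columns of no known sample was 0.

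Means, SDs and sums were computed in Python 3.11.15 with pandas 2.3.3, with a pseudocount of 1 on the log2 scale, and TMM factors in R 4.3.3 with edgeR 4.0.16. There is 1 group, so no test was run. Of 596 listed genes 418 were in the table, 11 of them by a RefSeq synonym. The genes named were the 4 markers, the 25 of highest mean, the 6 highest of each list, the 25 of largest spread (mean of 10 CPM or more), the 10 of smallest spread (mean of 100 CPM or more) and the 10 highest with a 0. Not every gene so chosen is reported here. Others were chosen after their values were seen. The scripts were tested on simulated data. CPM per kilobase was not computed.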

Additional observations from a re-analysis of the deposited data

How the results depend on the processing

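The number of genes at 1 CPM or more in all 3 libraries, 8368, ranged from 6836 to 9736 over the thresholds and scalings tried, and from 8470 to 9050 with 1 library left out. The number of variable genes depended on its rule. It was 46 with a pseudocount of 10, 1333 with a mean of 1 CPM or more and also without a filter, 14 with a mean of 100 CPM or more, 1731 at 2 times and 87 at 8 times, against 294. With 1 library left out it ranged from 44 to 231: 44 without replicate 1, 231 without replicate 2 and 110 without replicate 3. After equal library sums, quantile normalisation and TMM over the controls alone it was 304, 281 and 290, of which 289, 273 and 288 were among the 294. Of the 25 most variable genes, 17 remained with a pseudocount of 0.1, 7 with a pseudocount of 10 and 10 by coefficient of variation. The endothelial list held 1.35% of the CPM on average, between 1.29% and 1.40% with 1 library left out. For 17 of 26 lists the highest and lowest library were the same under all 3 scalings. They changed for 9, whose libraries differed by at most 1.27-fold, among them the endothelial, arterial, glutamine and immediate early lists. CPM per kilobase was not run, for want of transcript lengths. No paired analysis was possible because only 1 group is described. Sampling of molecules before amplification was not measured and limits genes of few reads.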

Other observations

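Gene families grouped by symbol, after the table had been seen, gave further values. The 81 cytosolic ribosomal protein genes held 8.73%, 7.58% and 6.60% of the CPM in replicates 1, 2 and 3, and 71 of them were highest in replicate 1 and lowest in replicate 3, an order found in 21.8% of all listed genes. The 68 mitochondrial ribosomal protein genes did not share it, with 0.172%, 0.185% and 0.188%. Neither did the 48 proteasome genes (0.842%, 0.931% and 0.971%) or the 88 genes of the respiratory chain and ATP synthase (1.17%, 1.26% and 1.27%). The 7 genes of the CCT chaperonin, which folds actin and tubulin, were the steadiest family, with a median SD of 0.053 on the log2 scale. The 21 collagens were the most spread, with a median SD of 0.94 among those with a mean of at least 10 CPM. Of these 21, 18 were lowest in replicate 1, beside 41.0% of all listed genes.

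Genes of cell division were present in every library. The 18 listed summed to 6862, 5095 and 4940 CPM, with 1497, 1254 and 880.0 CPM of mki67, a protein of dividing cells, 1184, 738 and 788 CPM of the topoisomerase top2a, and 525, 310 and 316 CPM of the mitotic kinase cdk1. The replication clamp pcna was steadier, with 337, 379 and 350.3 CPM. Laminin chains of the basement membrane summed to 1989, 2713 and 3097 CPM over 9 genes, led by lama4, a chain of vessel walls, with 875.7, 1270.4 and 1558 CPM. The 12 cathepsins summed to 4526, 4747 and 6451 CPM. Of them 9 were highest in replicate 3, beside 34.9% of all listed genes. Examples were ctsd with 547, 501 and 839 CPM and ctsba with 681, 749.8 and 935 CPM.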
